A study of Mus musculus with 31 samples.

Results

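Fatty acids are built in the cytosol from citrate-derived acetyl units, lengthened and desaturated in the endoplasmic reticulum, activated to acyl-CoA by ligases, carried through the cell by small binding proteins, stored as triacylglycerol in lipid droplets and burned in mitochondria after passage through the carnitine shuttle. In brain, much of the synthesis machinery serves myelin and astrocytes, while microglia are known for lipid droplets and for a fatty acid-binding protein that belongs to their amyloid-associated state. The 42 genes followed here cover these steps, and they were selected by gene name from the 55401 genes of each count table. They comprise 4 genes of de novo synthesis, 7 of elongation and desaturation, 5 acyl-CoA ligases, 5 of uptake and binding, 4 of the carnitine shuttle, 7 of mitochondrial beta-oxidation, 7 of storage and lipolysis, and 3 nuclear receptors that sense fatty acids. All 42 had 1 row in each table. All 42 passed the low-count filter in both tables of microglia, and 41 passed it in cortex, where Fabp4, the adipocyte fatty acid-binding protein, was too low.

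The data were RNA-seq read counts from 31 libraries of 13-month-old mice on one C57Bl/6J background. A+ mice carry the APPswe/PS1dE9 transgene (APP/PS1), a mutant APP with a mutant human PS1 driven by the mouse prion protein promoter, and A- mice lack it. Pki/ki mice carry the PLCG2-P522R knock-in (KI) on both alleles, made in the germline by CRISPR/Cas9, and Pwt/wt mice carry wild-type (WT) Plcg2. CD11b+ microglia isolated from whole brain came from 3 male A-/Pwt/wt, 4 male A-/Pki/ki, 7 female A-/Pwt/wt, 4 female A+/Pwt/wt and 4 female A+/Pki/ki mice, none of them treated. Temporo-occipital cortex came from 4 female A+/Pwt/wt mice, 4 female A+/Pki/ki mice and 1 female A-/Pwt/wt mouse. CD11b is also carried by border macrophages, monocytes and neutrophils, so the isolation does not select microglia alone.

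Libraries held 16229831 to 25118180 counts in microglia and 25226544 to 43129427 counts in cortex. All 11 homeostatic microglia markers were higher in CD11b+ cells than in cortex, as the label states, and all 18 neuron markers were lower. Markers of some other cells were also called higher in the CD11b+ libraries, with 10 of 10 endothelial and mural and 4 of 7 choroid plexus and ependyma markers. Oligodendrocyte markers split, with 2 of 10 called higher and 6 lower. Of astrocyte markers, 11 of 12 were called lower, and of oligodendrocyte precursor markers 5 of 6 lower and 1 higher. Oligodendrocyte markers summed to 21952 to 50870 CPM in A+/Pwt/wt CD11b+ libraries, beside 14301 to 23271 CPM for the homeostatic microglia markers there and 3904 to 6582 CPM for oligodendrocyte markers in A+/Pwt/wt cortex. Levels called microglial here are levels of whole CD11b+ libraries, and the part of these other cells in them was not tested. The neuron score, the mean log2 CPM (read counts scaled to the depth of each library) of those 18 markers, nevertheless varied among the CD11b+ libraries. It was 2.83 to 3.29 in male WT and 4.28 to 5.45 in male KI libraries, 3.44 to 6.77 in A-/Pwt/wt, 4.56 to 5.44 in A+/Pwt/wt and 2.53 to 5.80 in A+/Pki/ki females, beside 9.44 to 9.54 in cortex. The A-/Pwt/wt library of mouse 223 stood apart with the highest score and 24.5% of its counts on mitochondrial genes. The number 236 is given both to an A-/Pwt/wt microglia library and to an A+/Pwt/wt cortex library. Batch tags split the microglia into males, A+ females and A- females. Plcg2, in which the knock-in changes a residue and not the level by design, lay at 247 to 248 CPM in male WT and 170 to 213 CPM in male KI microglia (log2 fold change (log2FC) −0.36, edgeR adjusted p 0.0581), at 142 to 200 CPM in A+/Pwt/wt and 141 to 248 CPM in A+/Pki/ki microglia, at 126 to 230 CPM in female A-/Pwt/wt microglia and at 5.32 to 9.71 CPM in cortex, so that this level gives no check of the genotype.

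Most of the pathway was detected in the CD11b+ libraries. Per kilobase of annotated exon, the leading genes in A+/Pwt/wt microglia were the stearoyl-CoA desaturases Scd1 (133 CPM per kb) and Scd2 (131 CPM per kb), which put the first double bond into saturated acyl chains. They were followed by the delta-5 desaturase Fads1 (38.0 CPM per kb), by Acly (37.0 CPM per kb), which releases cytosolic acetyl-CoA from citrate, and by the heart-type binding protein Fabp3 (24.6 CPM per kb). The first 4 of these genes also led in male WT microglia, with Scd1 at 73.1, Scd2 at 66.5, Acly at 42 and Fads1 at 36.0 CPM per kb. Fabp3 did not, at rank 26 in male WT (5.62 CPM per kb) and rank 22 in female A-/Pwt/wt microglia (7.81 CPM per kb). The order depends on the annotated exon length, which joins the exons of all transcripts of a gene. It was 823 bases for Fabp3 but 3567 for Fabp5 and 4489 for Fabp4. Fabp5 had more CPM than Fabp3 in A+/Pwt/wt microglia, yet ranked 9 there at 19.9 CPM per kb. In A+/Pwt/wt cortex, Scd2 led alone at 295 CPM per kb, ahead of Fabp3 at 74.4 and the delta-6 desaturase Fads2 at 54.2. Scd1 and Scd2 in microglia were not separated by their spread, since the A+/Pwt/wt libraries held 390 to 855 CPM of Scd1 and 538 to 940 CPM of Scd2. At the bottom of the order in microglia were Fabp4 and the receptors Ppara and Pparg, at 0.122, 0.212 and 0.221 CPM per kb in A+/Pwt/wt microglia. Fabp4 did not exceed 1.53 CPM in any library. Ppara and Pparg were at 0 counts in the A-/Pwt/wt library of mouse 245. The third receptor, Ppard, was well measured, at 50.3 to 102 CPM across the CD11b+ libraries.

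Setting CD11b+ microglia against cortex within A+/Pwt/wt females (4 libraries each, scaled together) asks in which compartment each step is transcribed. Brain region (whole brain against temporo-occipital cortex), cell isolation, RNA extraction, mice and library set differ together with the compartment. These cannot be told apart. Of 41 genes tested, 21 were higher in microglia and 12 higher in cortex. Of all genes tested, 77.9% were called in this comparison, 37.7% higher and 40.2% lower in microglia, so a call in itself says little about a single gene. The order by role is plain in the bar plot of microglia over cortex. All 7 beta-oxidation genes were higher in microglia (median log2FC 0.60), with Hadha, the alpha subunit of the trifunctional protein, at 144 to 165 CPM against 61.9 to 62.9 CPM. Of storage and lipolysis, 5 were higher and 2 lower. In bulk samples such as these, fewer cells of a type and less RNA per cell cannot be told apart.

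The 6 genes with the highest log2FC towards the CD11b+ libraries were Plin2 and Pnpla2 of storage and lipolysis, and Acacb, Scd1, Cd36 and Elovl1 of other roles. Plin2, which coats lipid droplets, stood at 39.7 to 47.3 CPM in microglia and at 5.49 to 7.54 CPM in cortex (log2FC 2.66, SE 0.13, edgeR adjusted p 1.58e-08). Acacb, the acetyl-CoA carboxylase whose malonyl-CoA restrains the carnitine shuttle, was higher by 2.26 (SE 0.22, edgeR adjusted p 3.03e-06). Scd1 was higher by 2.17 (SE 0.21), Pnpla2, the adipose triglyceride lipase, by 2.00 (SE 0.11), the scavenger receptor and fatty acid transporter Cd36 by 1.93 (SE 0.21) and Elovl1, an elongase of very long saturated chains, by 1.88 (SE 0.11), with edgeR adjusted p between 2.71e-08 and 9.74e-06. The libraries of microglia and cortex did not overlap for these 6 genes, which is likely for genes picked by their log2FC here. The share of all genes without overlap was not computed for this comparison.

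The 6 genes with the lowest log2FC, towards cortex, came from 6 different roles. Dgat2, an enzyme of triacylglycerol synthesis, stood at 4.36 to 4.75 CPM in microglia and at 59.8 to 70.7 CPM in cortex (log2FC −3.83, SE 0.10, edgeR adjusted p 1.9e-09). Cpt1c, the neuronal member of the carnitine palmitoyltransferase family, followed at −3.29 (SE 0.22), and Elovl6, which elongates palmitate, at −2.65 (SE 0.21). Pparg stood at −1.94 (SE 0.25), the fatty acid synthase Fasn at −1.49 (SE 0.12) and the acyl-CoA ligase Acsl6, which favours polyunsaturated chains, at −1.49 (SE 0.26). Paralogs parted, with Cpt1a higher in microglia (log2FC 1.62) where Cpt1c was lower, and Scd1 higher where Scd2 was lower (log2FC −0.82). Scd1 also rose with the neuron score among A-/Pwt/wt CD11b+ libraries, as given below. Oligodendrocyte markers summed to 21952 to 50870 CPM in the CD11b+ and 3904 to 6582 CPM in the cortex libraries of this comparison. The part of other cells in the Scd1 difference was not tested. Fabp5, the epidermal-type binding protein, did not pass the test between the compartments (log2FC 0.33, SE 0.21, edgeR adjusted p 0.184), with 57.8 to 120 CPM in A+/Pwt/wt microglia and 54.1 to 70.8 CPM in cortex.

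**Figure D1:**
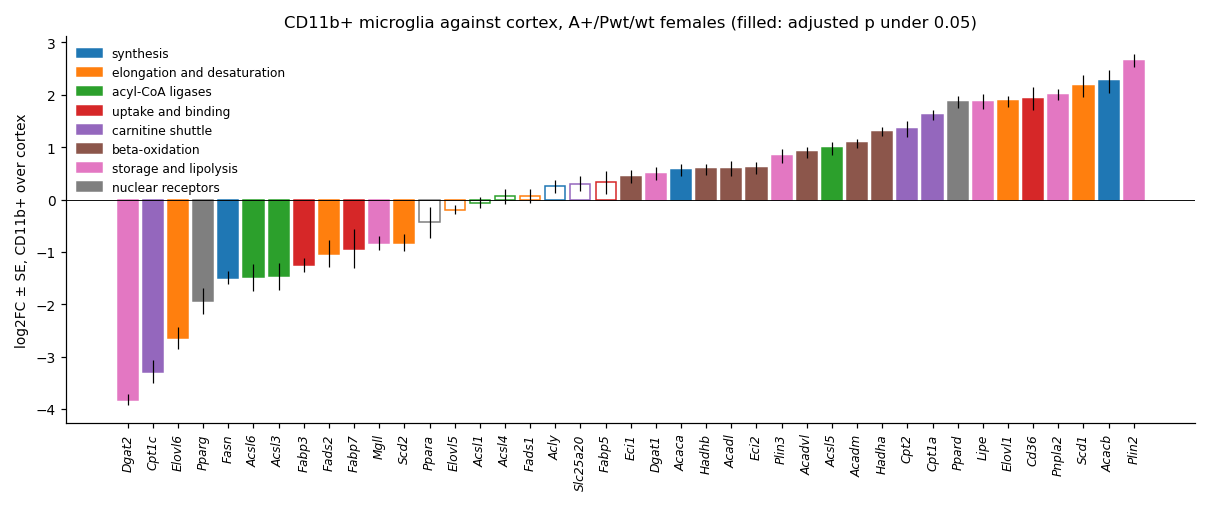
Log2FC of 41 fatty acid genes between CD11b+ microglia and temporo-occipital cortex of A+/Pwt/wt females (4 libraries each), with bars for the fold change, lines for the SE, colours for the role and filled bars for an edgeR adjusted p under 0.05. Dgat2 (−3.83), Cpt1c (−3.29) and Elovl6 (−2.65) lie at the cortical end, Plin2 (2.66) and Acacb (2.26) at the microglial end, and all 7 beta-oxidation genes stand above 0.

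The comparison of male A-/Pki/ki with A-/Pwt/wt microglia asks how the KI shifts these genes without amyloid. It called 9 of the 42 genes higher and 1 lower, where 16.4% of all genes were called, 11.1% higher and 5.26% lower. The rises fell on binding proteins (Fabp5, Fabp7), desaturases (Scd1, Scd2, Fads2), ligases (Acsl3, Acsl6), Fasn and a single beta-oxidation gene (Eci1), and the fall on the ligase Acsl4. The median log2FC over the 42 genes was 0.20, with 30 above 0, against −0.00 over all genes tested. In 14 genes every KI library exceeded every WT library and in 3 every KI library lay below. Of all 16373 genes, 30.8% had groups that did not overlap, 2522 with KI above and 2516 with KI below.

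Fabp7, the binding protein of astrocytes and radial glia, lay at 2.58, 2.50 and 3.63 CPM in WT mice 101, 102 and 94 and at 7.2, 7.5, 9.59 and 6.68 CPM in KI mice 104, 136, 139 and 84. All 4 KI libraries were above the WT libraries, by a log2FC of 1.41 (SE 0.22, edgeR adjusted p 0.0054). Acsl6 lay at 24.7, 29.9 and 32.5 CPM in the WT libraries, in the same order of mice, and at 39.3, 77.9, 85.8 and 59.9 CPM in the KI libraries (log2FC 1.18, SE 0.24, edgeR adjusted p 0.0134). Mouse 104 was the lowest KI library here, although still above all WT libraries. Fads2 rose from 32.9, 38.3 and 44.1 CPM to 51.0, 99.6, 113 and 75.4 CPM (log2FC 1.14, SE 0.25, edgeR adjusted p 0.0157). Acsl3, a ligase of the endoplasmic reticulum and of lipid droplets, rose from 19.1, 21.4 and 22.4 CPM to 34.0, 48.7, 57.0 and 39.1 CPM (log2FC 1.09, SE 0.18, edgeR adjusted p 0.0062). Neither gene overlapped between the groups, and in both the libraries of mice 136 and 139 were the highest.

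The desaturases showed the same order of libraries. Scd2 lay at 349, 345 and 395 CPM in WT and at 489, 863, 883 and 623 CPM in KI libraries (log2FC 0.98, SE 0.21, edgeR adjusted p 0.0146). Scd1 lay at 372, 345 and 355 CPM against 440, 797, 840 and 450 CPM (log2FC 0.82, SE 0.24, edgeR adjusted p 0.0481). The KI libraries of mice 136 and 139 carried most of the rise of Scd1, with mice 104 and 84 only a little above WT. Fasn, which makes palmitate, lay at 48.0, 47.7 and 45.8 CPM against 50.5, 80.1, 82.9 and 81.0 CPM (log2FC 0.64, SE 0.17, edgeR adjusted p 0.0296), and here mouse 104 stayed close to WT.

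Fabp5 lay at 6.17, 7.39 and 10.4 CPM in WT and at 13.1, 13.8, 12.6 and 13.3 CPM in KI libraries (log2FC 0.72, SE 0.19, edgeR adjusted p 0.0296), with a narrower spread among KI than among WT. Eci1, an isomerase needed to oxidise unsaturated chains, lay at 16.7, 17.4 and 18.9 CPM against 25.5, 24.3, 23.7 and 21.9 CPM (log2FC 0.43, SE 0.11, edgeR adjusted p 0.0294). Unlike the desaturases and the risen ligases, Eci1 was highest in mouse 104. Acsl4, the ligase that prefers arachidonic acid, lay at 79.4, 71.5 and 75.3 CPM against 64.5, 53.9, 53.1 and 62.5 CPM (log2FC −0.37, SE 0.10, edgeR adjusted p 0.0415). Mgll, the monoacylglycerol lipase, had non-overlapping groups but missed the threshold (log2FC 0.47, SE 0.15, edgeR adjusted p 0.0554), as did Fabp3 (log2FC 0.55, SE 0.20, edgeR adjusted p 0.0899). Mgll passed it without a low-count filter (edgeR adjusted p 0.0147) and under DESeq2 (adjusted p 0.0271), and Fabp3 under DESeq2 (adjusted p 0.0497). In all, 12 of the 42 were called higher and 0 lower without a filter, beside 2597 higher and 603 lower of all 30652 genes. Under DESeq2, 12 were called higher and 1 lower, beside 2417 higher and 1302 lower of all 16373 genes.

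The remaining 6 beta-oxidation genes did not pass the test, with log2FC from −0.06 for Hadha to 0.19 for Hadhb. None of the 4 carnitine shuttle genes passed, with Cpt1c at 0.59 and the other three between 0.07 and 0.16. None of the 7 storage and lipolysis genes and none of the 3 nuclear receptors passed. Plin2 was at 25.3 to 26.0 CPM in WT and 22.4 to 37.1 CPM in KI libraries, which overlap.

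Leaving out 1 library at a time changed the count of called genes. Omitting WT mice 101, 102 or 94 left 5, 3 or 6 called fatty acid genes, beside 1236, 894 or 1111 of all genes. Omitting KI mice 136, 139 or 84 left 5, 5 or 10, beside 1771, 1353 or 2559 of all genes. The omission of KI mouse 104 raised the count to 19 of 41 tested, of which 17 were higher and 2 lower. Over all genes that omission called 5439 of 16242, where the full comparison called 2685 of 16373. Fabp7, Acsl3 and Acsl6 stayed called in all 7 omissions, and Fads2 and Scd2 in 6, being lost without mouse 102 at an edgeR adjusted p of 0.0563 and 0.0639. Scd1, Fasn and Eci1 kept their call in 2 omissions, Fabp5 in 3 and Acsl4 in 1, with edgeR adjusted p up to 0.142, 0.0908, 0.109, 0.111 and 0.255. Neuron markers moved with the genotype: 18 of 18 were higher in KI (median log2FC 2.08), as were 12 of 12 astrocyte markers (median 1.14), 6 of 10 oligodendrocyte markers and 4 of 10 endothelial and mural markers, and the summed neuron markers held 268 to 377 CPM in WT and 823 to 1877 CPM in KI libraries. Mitochondrial genes took 3.97 to 5.02% of all reads in WT males but 7.40 to 12.8% in KI males. The part of these differences in the fold changes above was not tested within the males.

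**Figure D2:**
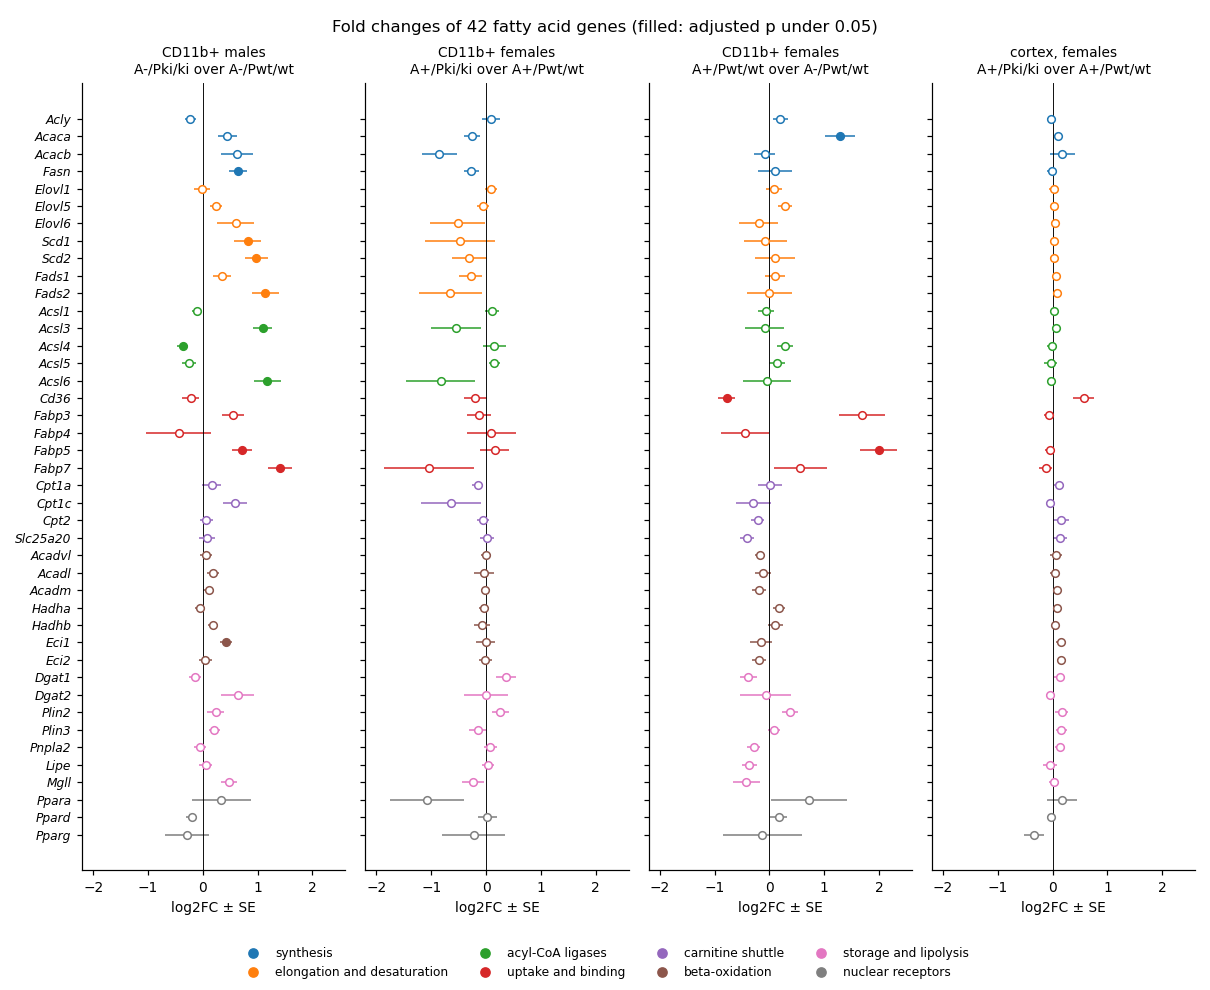
Log2FC with SE of the 42 fatty acid genes in 4 genotype comparisons, coloured by role, with filled points for an edgeR adjusted p under 0.05. Male KI microglia have 10 filled points, A+/Pwt/wt against A-/Pwt/wt females have 3 (Fabp5 at 1.99, Acaca at 1.29 and Cd36 at −0.78), and the KI comparisons in APP/PS1 microglia and in cortex have 0.

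The start regions of 3 of the risen genes are shown because they carry the CCAAT letters that many promoters of lipid synthesis genes hold. RefSeq promoter windows on GRCm38.p6, from 250 bases before to 50 bases after each start, were matched by symbol for 35 of the 42 genes (43 windows) and for 6 of the 9 risen genes. CCAAT on either strand, read ATTGG on the opposite one, was found in 20 of the 43 windows (46.5%) and in 12289 of all 32851 windows (37.4%). Of the 6 matched risen genes, Fasn, Acsl3, Acsl6 and Fabp7 held it and Fads2 and Eci1 did not. The windows lie at chr11:120824498-120824797 on the minus strand for Fasn, chr1:78657575-78657874 on the plus strand for Acsl3 and chr10:57784673-57784972 on the plus strand for Fabp7. They read as follows, 5′ to 3′, with each CCAAT or ATTGG in capitals, and in Fasn 1 match of each orientation overlap.
Fasn: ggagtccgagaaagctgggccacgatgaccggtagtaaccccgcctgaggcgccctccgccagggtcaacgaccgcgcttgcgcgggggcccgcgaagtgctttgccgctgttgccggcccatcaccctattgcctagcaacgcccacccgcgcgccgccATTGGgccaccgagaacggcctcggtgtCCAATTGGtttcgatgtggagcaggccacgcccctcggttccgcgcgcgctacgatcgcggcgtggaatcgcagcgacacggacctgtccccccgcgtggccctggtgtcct
Acsl3: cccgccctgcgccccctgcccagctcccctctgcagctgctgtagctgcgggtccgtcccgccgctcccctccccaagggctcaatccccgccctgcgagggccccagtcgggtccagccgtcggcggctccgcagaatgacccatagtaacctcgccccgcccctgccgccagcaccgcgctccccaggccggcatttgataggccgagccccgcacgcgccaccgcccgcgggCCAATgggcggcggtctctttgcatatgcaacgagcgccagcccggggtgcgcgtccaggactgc
Fabp7: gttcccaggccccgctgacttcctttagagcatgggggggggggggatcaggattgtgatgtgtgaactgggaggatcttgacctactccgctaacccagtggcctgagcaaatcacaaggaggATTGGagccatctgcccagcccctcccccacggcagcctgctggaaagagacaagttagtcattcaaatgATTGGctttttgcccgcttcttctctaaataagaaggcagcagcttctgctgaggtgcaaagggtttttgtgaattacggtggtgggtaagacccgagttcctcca
The windows differ in composition, with 69.3% G and C in Fasn, 74.0% in Acsl3 and 54.0% in Fabp7. A sterol regulatory element spelled TCACNCCAC was in 1 of the 43 windows (2.33%, for Acsl1) and in 1.24% of all windows. The DR1 element bound by peroxisome proliferator-activated receptors, spelled as a perfect repeat, was in 0 of the 43 and in 0.0396% of all. These letters are a description of the windows and no measure of binding.

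Among the 7 A-/Pwt/wt females, which share genotype, sex and batch tag, the same genes could be followed along the neuron score. The slope of log2 expression per unit of score was called positive for 15 of 41 genes and negative for 0, where 24.6% of all genes had a called slope, 15.8% positive and 8.88% negative. The largest slopes belonged to Fabp3 (0.79, SE 0.15), Acsl6 (0.76, SE 0.08), Fabp7 (0.73, SE 0.13), Fads2 (0.71, SE 0.06), Scd2 (0.67, SE 0.05) and Scd1 (0.66, SE 0.07), with edgeR adjusted p between 2.05e-05 and 0.0047. In CPM, Fabp3 ranged from 1.71 in mouse 242 to 12.2 in mouse 236, Acsl6 from 17.3 in mouse 242 to 121 in mouse 223, and Scd1 from 345 in mouse 245 to 1689 in mouse 223. Of the 7 beta-oxidation genes, 0 had a called slope, and the slope of Hadha was −0.11. The mean log2 CPM over 41 fatty acid genes followed the neuron score across the 7 libraries (Pearson's r 0.968, Spearman's rho 0.929, and r 0.965 without mice 223 and 242), in libraries that also differ in mitochondrial share. Leaving out the 2 libraries farthest from the median score, a choice made after seeing the data, left 10 positive and 3 negative slopes called. Over all 16016 genes tested, 2148 positive and 1726 negative slopes were called in that subset. Leaving out mouse 223 alone left 13 positive and 5 negative, beside 2629 positive and 2348 negative of all 16425 genes. The neuron score did not stand for neurons alone in these 7 libraries. Called slopes were positive for 12 of 12 astrocyte markers (median 0.66), 10 of 10 oligodendrocyte markers (median 0.78) and 4 of 6 oligodendrocyte precursor markers. They were negative for 4 of 11 homeostatic microglia markers. Which of these cells the slopes of the fatty acid genes follow was not tested.

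**Figure D3:**
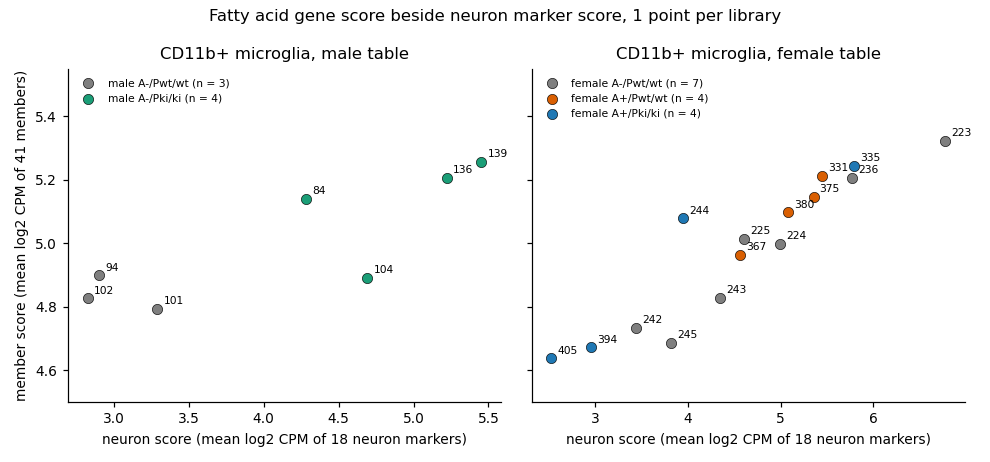
Mean log2 CPM of 41 fatty acid genes (vertical axis) against the neuron score (horizontal axis, mean log2 CPM of 18 neuron markers), 1 point per CD11b+ library with its mouse number, coloured by genotype, with the male and female tables scaled separately. The 3 male WT libraries lie at scores of 2.83 to 3.29 and the 4 KI libraries at 4.28 to 5.45, and among females mouse 223 holds the highest value on both axes.

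The male KI comparison and the slopes rest on different libraries. Of the 9 genes higher in male KI, 8 had a called positive slope in the A-/Pwt/wt females, which is 88.9% of the first list and 53.3% of the 15 in the second, and the one without was Eci1 (slope 0.21, SE 0.11, edgeR adjusted p 0.176). Over all genes the same overlap held 1564 genes, 85.7% of the 1824 higher in male KI and 59.8% of the 2616 with a positive slope, so the share among the fatty acid genes lay near that of all genes. Of the same 9, 6 were higher in cortex than in microglia (66.7%, and 50.0% of the 12 cortical genes), while Scd1 and Eci1 were higher in microglia. Of all genes higher in male KI, 78.2% were cortical and 10.8% higher in microglia. Of the 15 genes with a positive slope, 11 were cortical (73.3%, and 91.7% of the cortical genes), beside 77.4% of all genes with a positive slope. Over all genes these were 2025, or 27.2% of the 7447 cortical genes, of which only 5937 were tested for a slope. Across 41 genes, the male log2FC and the slope had a Pearson's r of 0.822 and a Spearman's rho of 0.783, beside 0.796 and 0.75 across 15985 genes, a description only, since the genes share libraries and are not replicates.

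**Figure D4:**
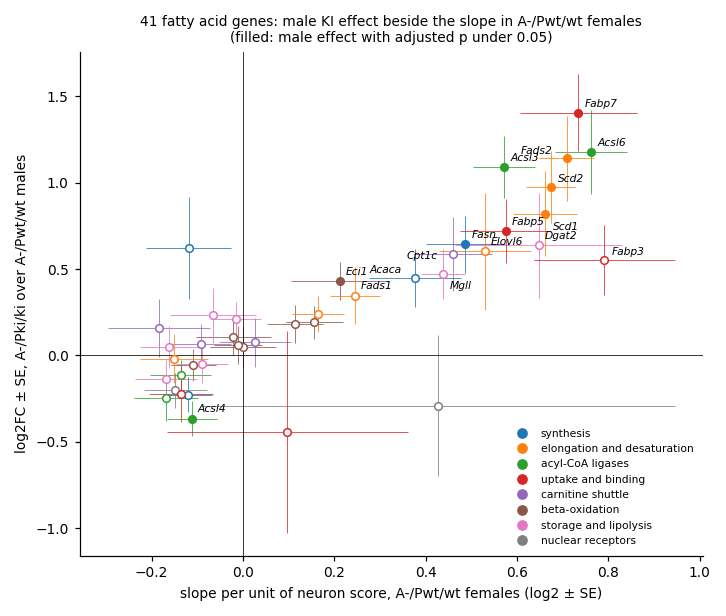
Log2FC of male KI over WT microglia (vertical axis) against the slope on the neuron score among A-/Pwt/wt females (horizontal axis, log2 per unit of score), each with its SE, for 41 fatty acid genes coloured by role. Fabp7, Acsl6, Fads2, Acsl3 and Scd2 lie at the upper right (log2FC 0.98 to 1.41), and Acsl4 is the filled point below 0.

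In microglia of APP/PS1 females the comparison of A+/Pki/ki with A+/Pwt/wt called 0 of 42 genes, as 0% of all genes were called by edgeR and 7 by DESeq2, none of them among the 42. At an unadjusted p under 0.05 there was 1 gene, against 3.37% of all genes, and its groups did not overlap, against 2.81% of all genes. Without A+/Pki/ki mouse 335, whose neuron score of 5.80 was the highest of its group, 13 of 42 genes and 4594 of 16825 genes had an unadjusted p under 0.05. Still 0 were called (lowest edgeR adjusted p over all genes 0.0754), and the median log2FC over the 42 was −0.11. The A+/Pki/ki scores left, 2.53 to 3.95, all lay below the 4.56 to 5.44 of A+/Pwt/wt, and the part of this was not tested. The gene in the full comparison was Acacb, at 25.2, 16.8, 16.1 and 21.8 CPM in A+/Pwt/wt mice 331, 367, 375 and 380 and at 16.0, 15.2, 7.23 and 7.42 CPM in A+/Pki/ki mice 244, 335, 394 and 405 (log2FC −0.86, SE 0.32, edgeR adjusted p 0.853). The lowest of the former and the highest of the latter nearly touch, and the 2 lowest libraries, of mice 394 and 405, also had the lowest neuron scores. The median log2FC was −0.05, with 13 genes above 0.

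Of the genes higher in male KI, Fabp7, Acsl6 and Fads2 had wide intervals here, while those of Fasn and Eci1 were narrower. Fabp7 was at 15.6, 6.33, 23.2 and 5.73 CPM in A+/Pwt/wt and at 6.80, 15.5, 2.24 and 1.05 CPM in A+/Pki/ki libraries (log2FC −1.03, SE 0.82). The groups overlap, and mice 394 and 405 again hold the lowest values. Acsl6 stood at −0.82 (SE 0.63), Fads2 at −0.65 (SE 0.57), Fasn at −0.27 (SE 0.13), Mgll at −0.24 (SE 0.20), Fabp3 at −0.13 (SE 0.21) and Eci1 at −0.01 (SE 0.17). On the other side were Dgat1, which makes triacylglycerol, at 0.36 (SE 0.18), Plin2 at 0.26 (SE 0.15) and Fabp5 at 0.16 (SE 0.27). Plin2 was at 36.2 to 41.8 CPM in A+/Pwt/wt and 36.9 to 57.9 CPM in A+/Pki/ki libraries, with mice 394 and 405 the highest at 57.9 and 55.7 CPM. All of these had an edgeR adjusted p between 0.853 and 0.99.

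The KI effect was also compared between the settings, males without and females with the transgene, as a difference of log2FC in one fit. It called 0 of 42 genes and 0% of all genes, while 13 of the 42 and 26.5% of all genes had an unadjusted p under 0.05. The difference was positive, meaning a larger male effect, for 32 genes (median 0.31). It was 2.46 for Fabp7 (SE 0.98), 2.02 for Acsl6 (SE 0.77) and 1.81 for Fads2 (SE 0.71), and −0.49 for Acsl4 (SE 0.26), −0.47 for Dgat1 (SE 0.22) and −0.37 for Acsl5 (SE 0.18), with edgeR adjusted p between 0.147 and 0.234. Without A+/Pki/ki mouse 335, whose neuron score was the highest of its group, 6199 genes were called, among them 16 of the 42 (13 positive, 3 negative). The A+/Pki/ki scores left, 2.53 to 3.95, all lay below the 4.56 to 5.44 of A+/Pwt/wt. In males the KI scores (4.28 to 5.45) all lay above those of WT (2.83 to 3.29). The part of these opposite score differences in the calls was not tested. Sex, batch tag and transgene differ together between the settings and cannot be told apart.

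The transgene comparison in female microglia, A+/Pwt/wt (4) against A-/Pwt/wt (7), asks which of the genes move with the transgene. It called 2 genes higher, Fabp5 and Acaca, and 1 lower, Cd36, where 1.29% of all genes were called, 1.01% higher and 0.282% lower. The groups did not overlap for Fabp5 and Fabp3 above and for Cd36 and the mitochondrial acylcarnitine carrier Slc25a20 below, where 3.35% of all genes had non-overlapping groups. The median log2FC over the 42 genes was −0.05. It turned positive without mouse 223 (0.08), 236 (0.04), 367 (0.03) or 380 (0.01), and in a subset, added after seeing the data, of A-/Pwt/wt libraries within the neuron score range of A+/Pwt/wt (0.08). All 12 disease-associated microglia (DAM) markers were tested beside them, and 10 were higher in A+/Pwt/wt.

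Fabp5 had a lowest, median and highest value of 8.17, 15.2 and 30.9 CPM in A-/Pwt/wt, and stood at 51.5, 54.0, 72.1 and 106 CPM in A+/Pwt/wt mice 331, 367, 375 and 380. The rise was 3.98-fold (log2FC 1.99, SE 0.34, edgeR adjusted p 0.0123). It stayed called in 9 of 11 omissions of 1 library, being lost without mouse 375 or mouse 380 (edgeR adjusted p at most 0.0773), and in all 6 other alternatives. A+/Pki/ki libraries held 58.5 to 111 CPM, overlapping A+/Pwt/wt. In cortex Fabp5 was at 61.2 to 79.7 CPM in all 9 libraries, including 70.0 CPM in the A-/Pwt/wt mouse. The related Fabp3 ranged from 1.71 over 6.29 to 12.2 CPM in A-/Pwt/wt and lay at 22.1, 17.1, 17.8 and 24.1 CPM in A+/Pwt/wt, a log2FC of 1.68 (SE 0.42) that missed the threshold (edgeR adjusted p 0.0837). Fabp7 overlapped between the transgene groups, with 2.74 to 15.5 CPM against 5.73 to 23.2 CPM (log2FC 0.57, SE 0.49, edgeR adjusted p 0.837).

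Acaca, the carboxylase that commits acetyl-CoA to fatty acid synthesis, was at 25.1 to 32.2 CPM in 6 A-/Pwt/wt libraries and at 76.5 CPM in mouse 223, against 70.0, 96.7, 80.4 and 96.2 CPM in A+/Pwt/wt (log2FC 1.29, SE 0.27, edgeR adjusted p 0.0366). Mouse 223 thus fell among the A+ values, and without it the edgeR adjusted p was 6.34e-05. Acaca was called in 2 of 11 omissions, those of mice 223 and 331, with an edgeR adjusted p up to 0.171 in the others. The A+/Pki/ki libraries held 62.6 to 91.6 CPM and the cortex 72.3 to 89.6 CPM. Fasn, the next enzyme, had a log2FC of 0.11 (SE 0.31, edgeR adjusted p 0.982), with 52.0, 65.7 and 188 CPM as lowest, median and highest in A-/Pwt/wt and 74.9 to 102 CPM in A+/Pwt/wt.

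Cd36 was at 9.6, 12 and 13.9 CPM as lowest, median and highest in A-/Pwt/wt and at 6.66, 5.95, 7.37 and 8.49 CPM in A+/Pwt/wt (log2FC −0.78, SE 0.16, edgeR adjusted p 0.0303). It was called in 4 of 11 omissions, those of mice 223, 236, 245 and 380, and was lost without a low-count filter. Border macrophage markers moved with it: 2 of 6 were lower in A+/Pwt/wt, their summed level being 251 to 574 CPM in A-/Pwt/wt and 177 to 210 CPM in A+/Pwt/wt, and their part in the fall of Cd36 was not tested. Mgll stood at a log2FC of −0.42 (SE 0.25), Fads2 at 0.00 (SE 0.41) and Eci1 at −0.16 (SE 0.20), with edgeR adjusted p between 0.649 and 1.0. The count of called genes was 5 without mouse 223, 1 without mouse 224, 225, 242, 243, 367 or 380, 2 without mouse 236, 245 or 331, and 0 without mouse 375. Over all genes these omissions called 91 to 497, the most without mouse 223. With the neuron score as a covariate 5 of 42 were called, beside 707 of all 17355 genes, Fabp3 and Mgll being added. The batch tag splits these libraries exactly as the genotype does, and these cannot be told apart.

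**Figure D5:**
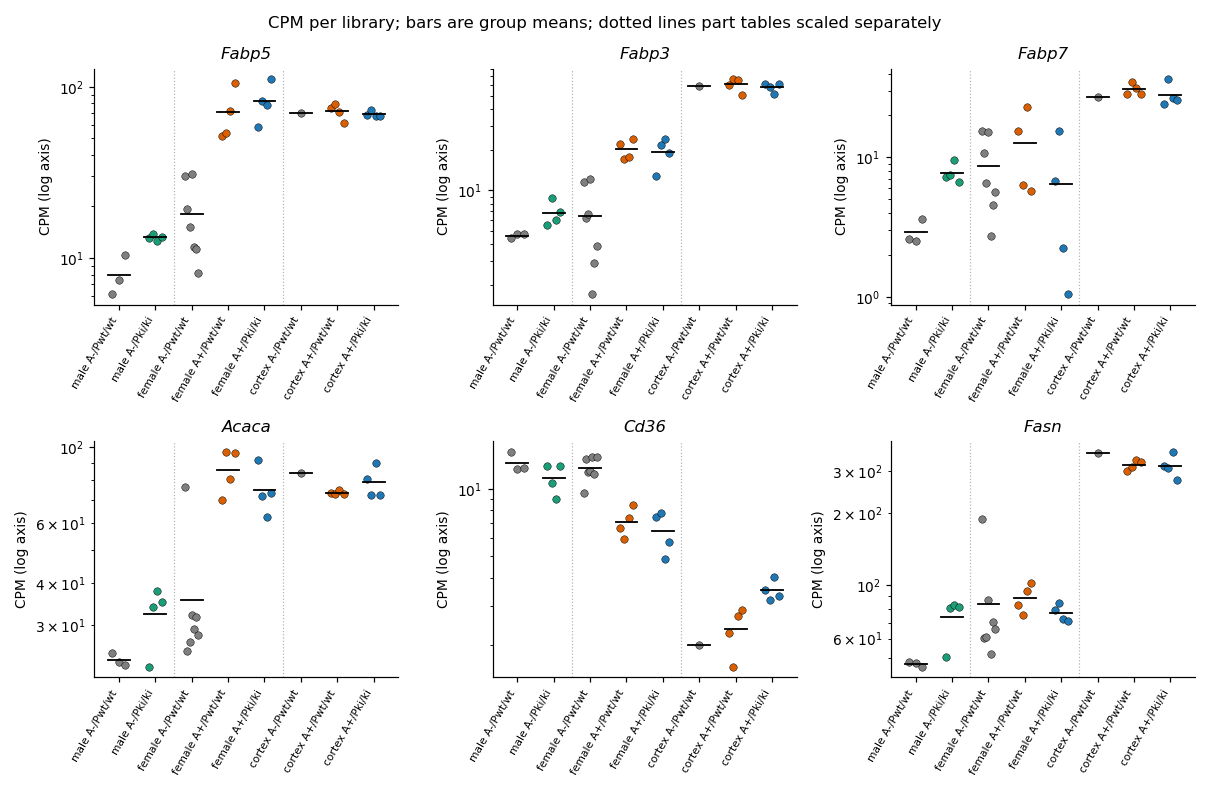
CPM (log axis) of Fabp5, Fabp3, Fabp7, Acaca, Cd36 and Fasn in all 31 libraries by group, with bars for group means and dotted lines between tables scaled separately. Fabp5 lies at 8.17 to 30.9 CPM in A-/Pwt/wt and 51.5 to 106 CPM in A+/Pwt/wt females, Acaca has 1 A-/Pwt/wt library (mouse 223) at the A+ level, and Cd36 is lower in both A+ groups than in A-/Pwt/wt.

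In temporo-occipital cortex, A+/Pki/ki against A+/Pwt/wt (4 against 4) called 0 of 41 genes and 0% of all genes by edgeR, while DESeq2 called 11 genes, none of the 41. At an unadjusted p under 0.05 there was 1 gene, against 2.76% of all genes, and its groups did not overlap, against 1.85% of all genes. It was Cd36, named after its values were seen, at 2.28, 1.60, 2.71 and 2.87 CPM in A+/Pwt/wt mice 236, 257, 259 and 329 and at 3.53, 3.19, 4.02 and 3.31 CPM in A+/Pki/ki mice 184, 203, 216 and 222 (log2FC 0.56, SE 0.19, edgeR adjusted p 1.0). Border macrophage markers summed to 10.7 to 15.1 CPM and 7.90 to 13.0 CPM in the same groups. Endothelial and mural markers, 0 of 10 called at a median log2FC of 0.29, summed to 327 to 451 CPM in A+/Pwt/wt and 349 to 520 CPM in A+/Pki/ki cortex, and their part in the Cd36 value was not tested. Fold changes in cortex were small. Plin2 had a log2FC of 0.17 (SE 0.12), Acacb of 0.17 (SE 0.22), Plin3, another droplet coat protein, of 0.16 (SE 0.10), Eci1 of 0.15 (SE 0.09), Fads2 of 0.07 (SE 0.07), Mgll of 0.03 (SE 0.10), Fasn of −0.02 (SE 0.08), Fabp5 of −0.05 (SE 0.08), Cpt1c of −0.05 (SE 0.06), Fabp3 of −0.07 (SE 0.09) and Fabp7 of −0.13 (SE 0.12), all with an edgeR adjusted p of 1.0. With 28 of 41 genes above 0, the median was 0.04. All 7 beta-oxidation genes and all 7 elongation and desaturation genes had a log2FC above 0, at medians of 0.08 and 0.03, none past the test. The single A-/Pwt/wt cortex library allowed no test of the transgene.

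The mean log2 CPM over 41 of the genes summarises the groups, and is given without a test. It differed by 0.28 between male KI and WT microglia (SD 0.162 within KI and 0.0541 within WT), by −0.20 between A+/Pki/ki and A+/Pwt/wt microglia (SD 0.300 and 0.106), by 0.14 between A+/Pwt/wt and A-/Pwt/wt females (SD 0.106 and 0.238) and by 0.05 between A+/Pki/ki and A+/Pwt/wt cortex (SD 0.0517 and 0.0246). In the males the WT libraries spanned 4.79 to 4.90 and the KI libraries 4.89 to 5.26, so the groups overlap through mouse 104 at 4.89.

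A wider set of other fatty acid genes was followed beside the 42, with 85 tested in male microglia. In male KI, 10 were higher and 7 lower, 17 of 85 beside 16.4% of all genes. The rises were led by Faah, which degrades fatty acid amides, at 1.55 to 2.00 CPM in WT and 3.82 to 9.40 CPM in KI (log2FC 1.91), by the ligase Acsbg1 (log2FC 1.42) and by the malic enzyme Me1 (log2FC 1.06). The falls were led by Mlxip, a glucose-sensing transcription factor, at 109 to 116 CPM in WT and 65.0 to 72.2 CPM in KI (log2FC −0.72), by its relative Mlxipl (log2FC −0.60) and by the phosphatidate phosphatase Lpin2 (log2FC −0.50), with edgeR adjusted p between 0.0037 and 0.0195 for these 6. Along the neuron score of A-/Pwt/wt females, 16 of 83 tested rose and 9 fell, beside 15.8% and 8.88% of all genes, among them Faah (slope 1.01), Ppargc1a (0.80), Elovl2 (0.80), Mlxipl (−0.48), Agpat2 (−0.39) and Mlxip (−0.37). With the transgene, Hacd2, a dehydratase of chain elongation, rose from 15.6 to 24.2 CPM in A-/Pwt/wt to 31.2 to 34.5 CPM in A+/Pwt/wt (log2FC 0.66, edgeR adjusted p 0.0251) and was the single one called, while 0 were called for KI in APP/PS1 microglia or in cortex.

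Reads were counted without regard to strand, and some of the 42 genes share sequence with other genes. By the Gencode annotation of GRCm38, 12 genes overlap an exon on the opposite strand, 2 overlap one on the same strand, and 8 have a copy of at least 95% identity over 150 bases or more. Fabp5 (chromosome 3, 10012548 to 10016607, plus strand) has the copy Gm6166, which held 0 to 148 counts per library. Acaca (chromosome 11, 84129672 to 84401651, plus strand) shares 6118 bases at 99.2% identity with Gm5182, which held 0 to 65 counts while Acaca held 356 or more. Scd1 and Scd2, neighbours on chromosome 19, share 623 bases at 95.5% identity, so reads from that stretch could have been lost or split between them. Cd36 (chromosome 5, 17781690 to 17888801, minus strand) has neither an overlap nor such a copy.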

How the data were processed

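The authors trimmed paired reads of oligo(dT)-selected libraries with Trimmomatic 0.39, aligned them to GRCm38 with STAR 2.7.9a and counted uniquely mapped reads per gene, irrespective of strand, with featureCounts (2.12.0 in the submitters' processing notes). The deposited counts are raw whole numbers per gene and library in 3 tables (cortex, female and male CD11b+ cells). The deposited normalized tables were not used here. Here, CPM were computed with TMM factors within each table, so levels of different tables are on separate scales, except in microglia against cortex, where both were scaled together.

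Tests used edgeR 4.0.16 (quasi-likelihood, R 4.3.3) on genes reaching 10 counts in 3 or more of the fitted libraries, with Benjamini-Hochberg adjustment over all genes tested and a threshold of 0.05. Fits held the compared groups. The SE is the absolute log2FC over the square root of F. Scores average log2 CPM over the listed genes (prior count 2). Scripts were tested on simulated data. Alternatives were DESeq2 1.42.0, its size factors, no filter, a fit over every group of a table, a neuron score covariate and leaving out each library.

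The 42 genes, the other lists and the tests were chosen with earlier results of these data known. Fold changes are named for every gene past the threshold (the 6 largest rises and falls where more than 12 passed), otherwise for the 3 highest and 3 lowest log2FC at a mean of at least 5 CPM, and in genotype comparisons for Mgll, Fasn, Fads2, Fabp7, Fabp5, Fabp3 and Eci1. Separate mice are the replicates, so p-values measure the spread between mice. Exon lengths and overlaps come from Gencode vM21 on GRCm38, an earlier release than the one the authors counted on, and all 42 genes were found in it.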

Additional observations from a re-analysis of the deposited data

Results flagged for a closer look

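In groups of 4 to 7 libraries, the highest or lowest CPM was set against the gap to its nearest neighbour (Dixon's test) for 19 named genes and the mean over the fatty acid genes. Of 120 such tests, 7 passed, where chance passes about 1 in 20. Among A-/Pwt/wt females, mouse 223 was far above the other libraries for Scd1 (1689 CPM against 345 to 723), Fasn (188 CPM against 52.0 to 86.7) and Acaca (76.5 CPM against 25.1 to 32.2), and it also had the highest neuron score (6.77) and mitochondrial share (24.5%) of the group. The part of that composition in the 3 values was not tested. Among male KI libraries, mouse 104 was far below the others for Fasn (50.5 CPM against 80.1 to 82.9) and Plin3 (24.6 CPM against 27.9 to 28.1), and mouse 84 was above them for Dgat1 (26.0 CPM against 22.4 to 22.8). In A+/Pki/ki cortex, mouse 203 held 73.3 CPM of Fabp5 against 67.7 to 68.1 CPM in the other three.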

How the results depend on the processing

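For all genes, the KI call in APP/PS1 microglia rose from 0 to 7 under DESeq2, the transgene call from 224 to 636 under DESeq2 and to 707 with the neuron score as a covariate (fatty acid genes from 3 to 5), and the KI call in cortex from 0 to 40 without a filter and to 11 under DESeq2. Leaving out 1 library at a time gave 894 to 5439 genes and 3 to 19 fatty acid genes for male KI, 0 to 1 genes for KI in APP/PS1 microglia, 91 to 497 genes and 0 to 5 fatty acid genes for the transgene, 0 to 2 genes for KI in cortex, 0 to 6199 genes and 0 to 16 fatty acid genes for the difference of KI effects, and 2707 to 4977 genes for the slope. Of single calls, Acsl4 in male KI was lost without a filter (edgeR adjusted p 0.154), Acaca with DESeq2 size factors (0.0525), and Cd36 without a filter and in a subset of A-/Pwt/wt libraries within the neuron score range of A+/Pwt/wt, added after seeing the data (up to 0.0878). Signs turned for values near 0: Eci1 for KI in APP/PS1 microglia (0.049 with all groups), and Fads2 for the transgene (−0.017 with all groups, −0.0089 with DESeq2 size factors, −0.010 with DESeq2, −0.077 with the covariate). Leaving out libraries, the log2FC ran from −0.0013 to 0.44 for Fabp5, −0.24 to 0.022 for Fabp3 and −0.099 to 0.091 for Eci1 (KI in APP/PS1 microglia), from −0.35 to 0.28 for Fads2 (transgene), and from −0.041 to 0.38 for Acacb, −0.058 to 0.10 for Mgll and −0.084 to 0.042 for Fasn (KI in cortex). The cause was not tested. Over 67 pairs of a named gene and a comparison there were 819 alternatives. In 731 the sign was kept and the gene stayed called or stayed uncalled. In 49 the call was lost and in 16 a call was gained, with the sign kept, and in 23 the sign was reversed. Leaving out libraries, the difference of the mean over the fatty acid genes ran from 0.24 to 0.36 for male KI, −0.31 to −0.11 for KI in APP/PS1 microglia, 0.09 to 0.19 for the transgene and 0.04 to 0.08 for KI in cortex. Depth limits Fabp4, Ppara and Pparg, which fell to 0 counts in some libraries. No paired analysis was possible because the groups compared share no replicate numbers.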
